A study of Mus musculus with 8 samples.

Results

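The genes described here are the mouse Wnt ligands, their Frizzled receptors and co-receptors, the secreted proteins that modulate them, and a few parts of the pathway inside the cell. They were chosen by name: protein-coding genes whose symbol is Wnt, Fzd, Sfrp, Dkk or Rspo followed by a number, plus Axin2, Ctnnb1, Lef1, Tcf7, Tcf7l1, Tcf7l2, Lrp5, Lrp6, Wif1, Ror1, Ror2, Nkd1 and Porcn. This gives 54 of the 54532 genes in the deposited tables: 19 ligands, 10 Frizzleds, 4 co-receptors, 9 secreted antagonists, 4 R-spondins and 8 genes that act inside the cell. The rule reads symbols and gene types, not levels. The cells were cardiac fibroblasts of C57BL/6 mice at passage 2, transfected either with a plasmid that carries murine Thbs4 with an HA tag (pAAV.CMV.SV40.THBS4-HA.SV40(polyA), here the TSP-4 plasmid) or with the empty plasmid pAAV-CA, a construct of another name, so that the groups may differ in the backbone as well as in the inserted gene. After transfection both groups had 12 h in standard medium without antibiotics and 24 h without serum, and poly(A) RNA was then sequenced. Each group has 4 libraries, lettered A to D in both. The labels do not say what a letter marks, nor whether the 4 libraries of a group are separate animals or cultures. The p-values below therefore reflect spread among libraries, part of which may be technical.

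Wnt proteins are secreted, lipid-modified signals that bind Frizzled receptors. With the co-receptors Lrp5 and Lrp6 they keep β-catenin from being destroyed, so that it enters the nucleus and works with TCF and LEF factors; with Ror1, Ror2 and other partners they act on cell shape and polarity without β-catenin. Sfrp, Dkk and Wif1 proteins restrain the signal outside the cell and R-spondins strengthen it, and in the heart the pathway is known for its roles in development and in the fibroblast response to injury.

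Library totals were 17123735 to 22530947 counts, of which the 54 genes took 0.144% to 0.164%. Thbs4, the gene on the plasmid, stood at 444 to 657 FPKM in the TSP-4 plasmid libraries and at 0.0286 to 0.195 in those of the empty plasmid, which matches the labels. FPKM counts fragments per gene length and library size, so levels of different genes can be compared. All 10 cardiac fibroblast markers had a mean of at least 1 FPKM, and their summed level was 1368 to 1929 FPKM across the TSP-4 group and 1335 to 1963 across the empty plasmid group. Markers of other cells were present too: 10 of 12 macrophage markers reached a mean of 1 FPKM, with a sum of 213 to 1236 FPKM against 232 to 992, and 5 of 7 epicardial and mesothelial markers did, with a sum of 167 to 315 against 151 to 323. Endothelial (6 of 8 markers, 9.69 to 14.2 against 9.99 to 16.6 FPKM), smooth muscle and pericyte (1 of 6, 3.43 to 5.76 against 3.68 to 6.75), Schwann cell (1 of 5, 2.71 to 4.45 against 1.84 to 4.31) and cardiomyocyte markers (1 of 6, 1.80 to 2.46 against 1.76 to 2.37) were low. No marker had 0 counts over all libraries. In bulk RNA, fewer cells of a type and less RNA per cell cannot be told apart.

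Upstream sequences of 4 genes are shown here because the results below return to these genes. They include the most abundant ligand and its nearly silent neighbour on the same chromosome. Another is the ligand that was lower with the TSP-4 plasmid in every letter and is among the few members with a TCF/LEF motif. The last is a feedback gene of the pathway. Each is the 250 bases before the RefSeq transcription start on build GRCm38.p6, written 5′ to 3′ on the gene's strand. Wnt9a lies on the plus strand (chr11:59306680-59306929), Wnt3a on the minus strand (chr11:59290752-59291001), Wnt11 on the plus strand (chr7:98834862-98835111) and Axin2 on the plus strand (chr11:108920099-108920348). Capitals mark the letters CTTTGAT, a core of the TCF/LEF motif, here found on the minus strand and therefore printed as its reverse complement.
Wnt9a: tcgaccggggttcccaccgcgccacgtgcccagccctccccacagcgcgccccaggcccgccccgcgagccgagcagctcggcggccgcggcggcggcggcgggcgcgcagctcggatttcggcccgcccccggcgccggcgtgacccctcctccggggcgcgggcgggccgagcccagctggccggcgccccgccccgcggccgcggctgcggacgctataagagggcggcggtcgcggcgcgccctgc
Wnt3a: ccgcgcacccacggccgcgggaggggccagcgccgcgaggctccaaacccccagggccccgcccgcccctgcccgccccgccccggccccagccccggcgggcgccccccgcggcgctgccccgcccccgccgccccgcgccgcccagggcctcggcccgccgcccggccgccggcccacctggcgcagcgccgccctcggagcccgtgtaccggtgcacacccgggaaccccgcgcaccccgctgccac
Wnt11: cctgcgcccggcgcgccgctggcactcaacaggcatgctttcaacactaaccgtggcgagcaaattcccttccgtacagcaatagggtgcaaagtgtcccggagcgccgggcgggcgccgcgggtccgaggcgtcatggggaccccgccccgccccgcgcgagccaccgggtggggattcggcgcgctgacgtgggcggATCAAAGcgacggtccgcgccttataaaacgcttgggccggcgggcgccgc
Axin2: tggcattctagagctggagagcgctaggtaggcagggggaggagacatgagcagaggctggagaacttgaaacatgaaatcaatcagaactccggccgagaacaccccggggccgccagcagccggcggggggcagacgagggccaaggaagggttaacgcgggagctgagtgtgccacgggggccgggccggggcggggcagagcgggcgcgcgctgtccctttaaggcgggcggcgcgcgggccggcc
The Wnt9a and Wnt3a stretches hold 84.4% and 87.6% G and C with 48 and 41 CpG pairs, and that of Axin2 holds 69.2% with 24. Upstream sequences were at hand for 37 of the 54 genes. The median G and C content over the 46 annotated starts of these genes was 67.4%, against 55.6% over the starts of all protein-coding genes. CTTTGAT, searched on both strands and with no other motif, was found before 2 of the 37 genes (5.41%). It was found before 577 of 17492 protein-coding genes (3.30%) and before 1005 of 27025 genes of any type with an entry (3.72%). The 2 of the 37 are Wnt11, where the motif begins 51 bases before the start, and Wnt5b, where it lies 71 bases before 1 of 3 annotated starts. A match is a description of the letters in this window.

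**Figure D1:**
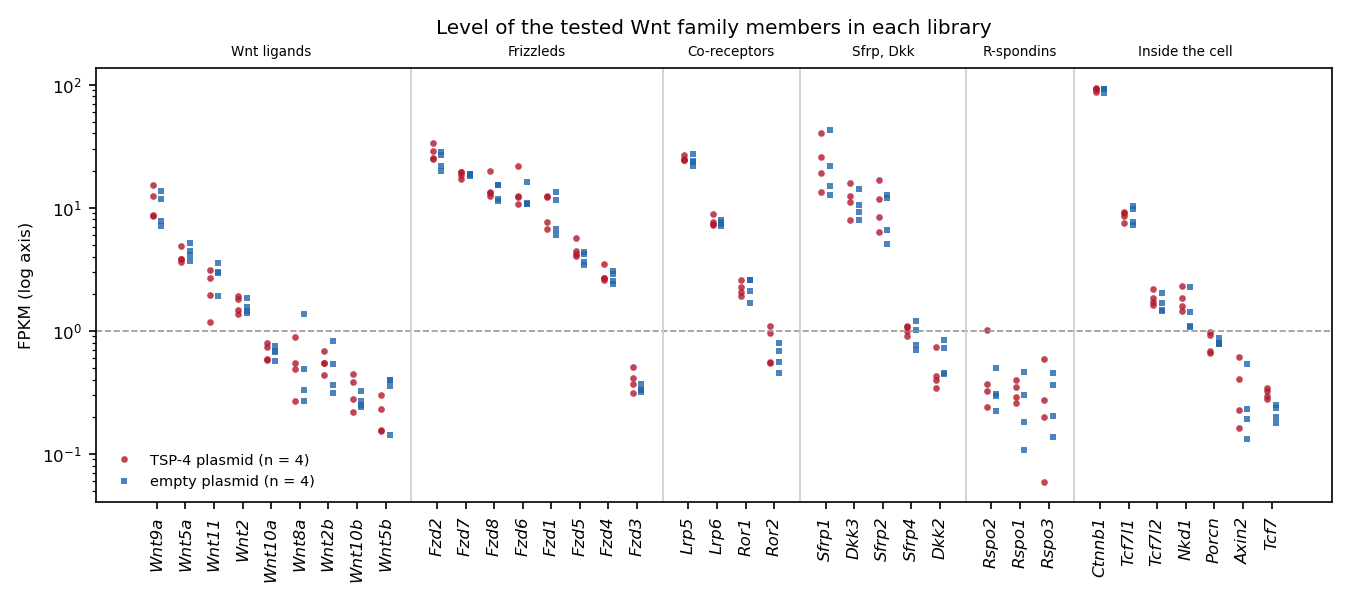
FPKM (log axis) of the 36 Wnt family genes that passed the expression filter, grouped by role, with 1 point per library (circles for the TSP-4 plasmid, squares for the empty plasmid, n = 4 each) and a dashed line at 1 FPKM. Each role has its own leading gene by mean, from Ctnnb1 at 85.7 to 94.4 FPKM down to Rspo2 at 0.223 to 1.01. The ranges of both groups overlap for every gene but Tcf7.

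Of the 54 genes, 21 had a mean of at least 1 FPKM over the 8 libraries and 9 a mean of at least 10: Ctnnb1, Fzd2, Lrp5, Sfrp1, Fzd7, Fzd8, Fzd6, Dkk3 and Wnt9a. At the other end 17 had a mean under 0.1 FPKM, 10 of them ligands. Receptors were thus broadly present (7 of 10 Frizzleds and 3 of 4 co-receptors at 1 FPKM or more), while ligands (4 of 19), antagonists (3 of 9) and R-spondins (0 of 4) were carried by few genes. Summed over each role, FPKM was 93.6 ± 12.3 in the TSP-4 group and 84.7 ± 8.36 in the empty plasmid group for Frizzleds, 21.8 ± 3.75 and 21.5 ± 3.99 for ligands, and 48.9 ± 17.5 and 44.1 ± 19.4 for antagonists (SD, n = 4 each). Co-receptors summed to 35.8 ± 1.89 and 34.4 ± 2.28 FPKM, R-spondins to 1.11 ± 0.282 and 0.917 ± 0.287, and genes inside the cell to 105 ± 2.62 and 103 ± 2.21. In the order of means among the 21 genes, the ranges over libraries did not overlap between only 3 neighbouring pairs: Ctnnb1 above Fzd2, Lrp6 above Fzd5, and Wnt5a above Fzd4.

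Wnt9a was the leading ligand (ENSMUSG00000000126, chromosome 11, 59306928 to 59333552, plus strand). It took 41.0% to 62.0% of all ligand FPKM in a library, ahead of Wnt5a with 15.5% to 21.7%, Wnt11 with 4.80% to 17.1% and Wnt2 with 6.03% to 9.41%. Wnt9a stood at 15.2, 8.55, 8.65 and 12.5 FPKM in libraries A to D of the TSP-4 group, and at 13.6, 7.07, 7.79 and 11.7 in those of the empty plasmid group. Letters A and D were high and B and C low in both groups, and the groups overlapped. Wnt5a, a ligand known for signalling through Ror2 without β-catenin (chromosome 14, 28504750 to 28527448, plus strand), had 3.81, 3.62, 3.81 and 4.91 FPKM in the TSP-4 group and 4.43, 3.65, 4.12 and 5.13 in the empty plasmid group. Its highest library was D in each group. Wnt11, a ligand of the β-catenin-independent branch with a part in heart development (chromosome 7, 98835112 to 98855195, plus strand), had 1.18, 2.69, 1.95 and 3.12 FPKM against 1.90, 2.94, 2.97 and 3.53. It was lowest in library A and highest in library D of each group, and the groups overlapped although each letter was lower with the TSP-4 plasmid.

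Among the other ligands, Wnt10a, Wnt8a, Wnt2b, Wnt10b and Wnt5b passed the filter with means of 0.266 to 0.671 FPKM. The remaining 10 ligands did not. Wnt7a had 14 and 8 counts in libraries A and D and 2 and 1 in B and C of the TSP-4 group. In the same order the empty plasmid group had 10, 6, 1 and 1. These few counts were higher in A and D, the letters where Wnt9a was high. Wnt7a was chosen after its values were seen, and only the edgeR fit with no filter on low counts tested it (adjusted p = 0.00967 between letters). That fit gave other genes adjusted p far from those of the main fit (edgeR, Fzd1 4.35e-48 against 1.17e-06, Sfrp1 0.0976 against 0.0244). The Wnt7a value therefore cannot be set beside the other adjusted p between letters. Wnt9b had 0 counts in all 8 libraries, which allows up to 3 counts in each, or 0.0295 to 0.0388 FPKM (counting error only). Of the Wnt genes, 4 pairs lie beside each other in the genome. Wnt3a and Wnt9a lie 16175 bases apart on chromosome 11, on opposite strands with their starts facing each other, and the means were 0.00969 and 10.6 FPKM. Wnt6 and Wnt10a, 6193 bases apart on chromosome 1, had 0.0585 and 0.671 FPKM. On chromosome 15, Wnt10b and Wnt1 lie 11706 bases apart and had 0.300 and 0.0741 FPKM. Wnt9b and Wnt3, 24328 bases apart on chromosome 11, were both at or near the level that 0 counts allow (0 and 0.0303 FPKM).

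Of the Frizzleds, Fzd2 was highest with 25.0% to 31.0% of all Frizzled FPKM, followed by Fzd7 (17.7% to 23.9%), Fzd8 (14.2% to 17.9%), Fzd6 (11.6% to 19.5%) and Fzd1 (6.07% to 14.7%). Fzd1, Fzd2 and Fzd7 are close relatives, and the treatment of reads that fit several genes is not given in the sources used here, so the split between them is uncertain. Fzd2 (ENSMUSG00000050288, chromosome 11, 102604396 to 102608058, plus strand) had 33.4, 28.6, 25.0 and 25.5 FPKM in libraries A to D in the TSP-4 group and 28.0, 26.5, 20.0 and 21.7 in the empty plasmid group. Within each letter the TSP-4 library was higher, and the ranges overlapped. Fzd7 hardly varied, with 19.6, 18.6, 19.4 and 17.2 FPKM against 18.9, 18.7, 18.3 and 18.0. Fzd8 had 19.8, 13.1, 13.4 and 12.5 FPKM against 15.3, 15.3, 11.7 and 11.3, with the TSP-4 plasmid library A above all others. Fzd3 passed the filter at a mean of 0.366 FPKM, and Fzd9 and Fzd10 did not, at 0.182 and 0.0413.

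The co-receptor Lrp5 (chromosome 19, 3584828 to 3686564, minus strand) had 26.9, 24.2, 25.0 and 24.2 FPKM in the TSP-4 group and 27.0, 24.1, 23.5 and 21.7 in the empty plasmid group. Lrp6, its close relative, had 8.88, 7.28, 7.19 and 7.69 FPKM against 7.89, 7.10, 7.39 and 7.65. Lrp5 was above Lrp6 in all 8 libraries. Ror1, a receptor for Wnt5a that acts without β-catenin, had 2.24, 1.93, 2.06 and 2.57 FPKM against 2.1, 2.56, 1.67 and 2.58, with the groups interleaved. Its relative Ror2 was lower, at a mean of 0.705 FPKM.

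Sfrp1, which binds Wnt proteins through a Frizzled-like domain, had the highest level of the 9 secreted antagonists chosen by symbol (ENSMUSG00000031548, chromosome 8, 23411502 to 23449632, plus strand). It stood at 19.2, 40.5, 25.8 and 13.5 FPKM in the TSP-4 group and 12.6, 42.4, 21.9 and 15.1 in the empty plasmid group. Library B was highest by far in each group. Frzb, a secreted Frizzled-related protein whose symbol lies outside the rule and which is named here after its values were seen, was higher than Sfrp1 in all 8 libraries, at 52.4 to 112 FPKM. Dkk3, a divergent member of the Dickkopf family (chromosome 7, 112116017 to 112159057, minus strand), had 11.1, 15.8, 12.5 and 7.86 FPKM against 9.18, 14.2, 10.4 and 7.88. Sfrp2 (chromosome 3, 83766321 to 83774316, plus strand) had 8.34, 11.7, 16.8 and 6.36 FPKM against 6.58, 12.7, 12.0 and 5.04. For both genes library D was lowest in each group. Sfrp4 and Dkk2 followed at means of 0.964 and 0.546 FPKM. The other antagonists, Wif1, Sfrp5, Dkk1 and Dkk4, had means of 0.00494 to 0.0217 FPKM and did not pass the filter.

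R-spondins were scarce. Rspo2 had 1.01, 0.366, 0.323 and 0.241 FPKM in the TSP-4 group and 0.497, 0.308, 0.295 and 0.223 in the empty plasmid group, so library A was highest in each group. Rspo1 rested on 4 to 19 counts per library (0.107 to 0.461 FPKM), and Rspo3 on 4 to 31 (0.0585 to 0.592 FPKM). Rspo4 did not pass the filter.

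Inside the cell, Ctnnb1, the gene of β-catenin (ENSMUSG00000006932, chromosome 9, 120929216 to 120960507, plus strand), was the most abundant of the 54 at 91.5, 87.0, 94.4 and 92.6 FPKM in the TSP-4 group and 91.3, 85.7, 92.2 and 91.4 in the empty plasmid group. Both groups covered nearly the same range. Among its nuclear partners, Tcf7l1 had 9.14, 9.03, 8.55 and 7.54 FPKM against 10.2, 9.64, 7.25 and 7.61, and Tcf7l2 had 2.16, 1.60, 1.83 and 1.71 against 2.02, 1.69, 1.45 and 1.48. Tcf7 and Lef1 were far lower, at means of 0.262 and 0.0379 FPKM, so that Tcf7l1 was the leading TCF/LEF transcript in these cells. Nkd1 and Axin2, both feedback inhibitors and known targets of the pathway, had means of 1.62 and 0.311 FPKM, and Porcn, the enzyme that attaches the lipid to Wnt proteins, 0.808.

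The first comparison asked which of these genes differ in fibroblasts that received the TSP-4 plasmid. None did by the threshold: of the 36 genes that passed the expression filter, 0 were called by edgeR's quasi-likelihood test at a Benjamini-Hochberg adjusted p of 0.05, where the background was 0.00679% of all 14723 genes tested (1 gene). At an unadjusted p under 0.05 edgeR also gave 0 of 36, against 1.60% of all genes, and DESeq2 and limma voom called 0. The log2 fold change was above 0 for 28 of the 36 (77.8%), against 49.9% of all genes tested, with a median of 0.11 against -0.00014. Values ran from -0.62 (Wnt5b) to 0.56 (Rspo2). By role the medians were 0.18 for Frizzleds (8 of 8 above 0), 0.27 for R-spondins (2 of 3), 0.14 for antagonists (4 of 5), 0.13 for genes inside the cell (6 of 7), 0.05 for co-receptors (3 of 4) and 0.00 for ligands (5 of 9). Leaving out single libraries gave 21 to 29 of the 36 above 0, with 21 (58.3%) without the TSP-4 plasmid library A. In at least 1 of these fits 20 of the 36 changed sign. These fits had no term for the letter, so the letter of a left-out library stayed in the other group alone. With a term for the letter and both libraries of a letter left out, 26 to 29 of the 36 were above 0 (72.2% to 80.6%, all genes 50.8% to 51.8%). Of the 18 genes that did not pass the filter, 17 were tested only in the fit with no filter. There 0 were called between plasmids (background 0.0033%), and Fzd10 alone had an unadjusted p under 0.05 in edgeR (adjusted p = 0.915).

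**Figure D2:**
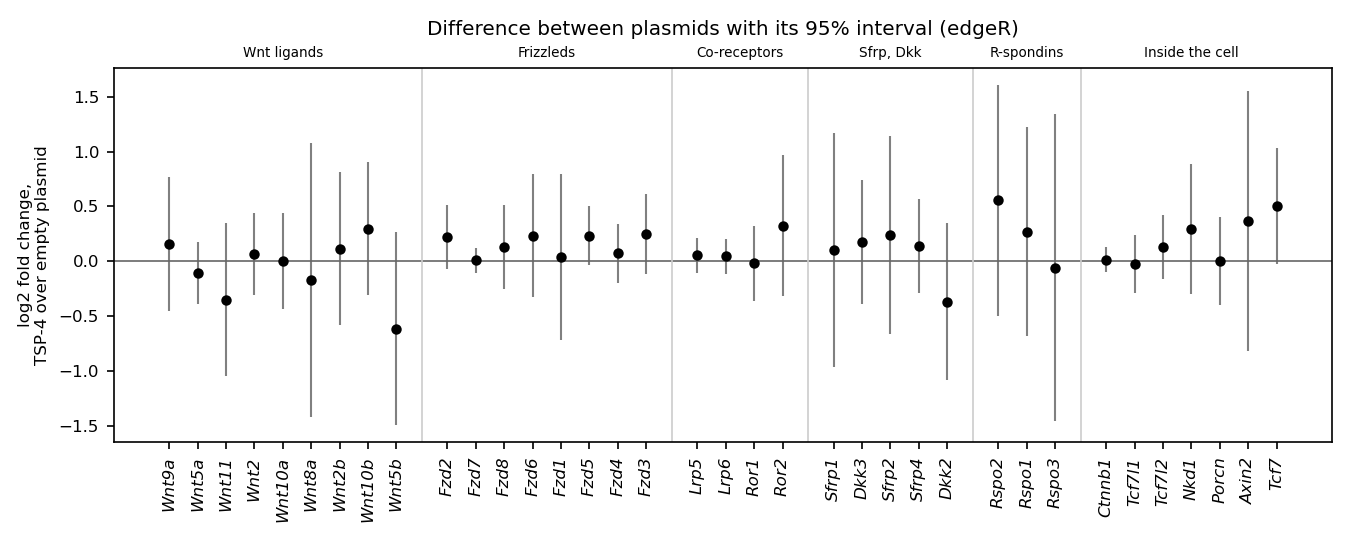
Log2 fold change of each tested Wnt family gene, TSP-4 plasmid over empty plasmid, from edgeR (points), with its 95% interval (lines, n = 4 libraries a group), grouped by role. The fit had the plasmid as its only term. Every interval includes 0, and the width differs between genes, from -0.10 to 0.13 for Ctnnb1 to -1.46 to 1.34 for Rspo3. With the letter as a block, edgeR gave 9 of the 36 genes an unadjusted p under 0.05 and called 0.

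Within letters the picture differed in detail. The letters pair the libraries by their deviations from the group means. A fit with the letter as a block still called 0 of 36 in edgeR (background 0.0136%) and 0 in DESeq2 (background 0.0679%). The DESeq2 fit gave no adjusted p for at least Dkk2, Nkd1, Ror2, Rspo1, Rspo2, Sfrp4, Tcf7, Wnt11 and Wnt5b, so it could not call them. At an unadjusted p under 0.05 the blocked edgeR fit gave 9 of 36 genes (25.0%), of which 8 were higher with the TSP-4 plasmid and 1 lower, where all genes gave 8.12% (4.14% higher and 3.98% lower). These were Fzd2, Fzd5, Fzd6, Wnt9a, Dkk3, Sfrp2, Nkd1 and Rspo2 on the higher side and Wnt11 on the lower. Higher in 4 of 4 letters were 9 of the 36 genes (background 8.03%) and lower in 4 of 4 were 3, namely Wnt11, Wnt5a and Dkk2 (background 8.04%).

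Fzd2 had the smallest unadjusted p of the Frizzleds in the blocked fit. Without the block its log2 fold change was 0.22 (95% interval -0.07 to 0.51). With the block it was 0.23, with a standard error of 0.04 against 0.13 without it (edgeR unadjusted p = 0.000134, adjusted p = 0.236). Fzd5 was 0.23 (-0.03 to 0.50) without the block. With the block Fzd5 was also 0.23, with a standard error of 0.06 against 0.12 (edgeR unadjusted p = 0.00288, adjusted p = 0.419). Wnt11 was -0.35 (-1.05 to 0.35) without the block. With the block Wnt11 was -0.38, with a standard error of 0.11 against 0.30 (edgeR unadjusted p = 0.00369, adjusted p = 0.419). Wnt5b was -0.62 (-1.49 to 0.26) without the block, on 7 to 21 counts per library, and it is uncertain. Fbxl14, which overlaps Wnt5b on the opposite strand, had 6111 counts in all against 106. The strand setting of the counting is not given in the sources used here. Also without the block, the log2 fold change of Lrp5 was 0.05 (-0.11 to 0.21). It bounds a difference of either sign more closely than that of Ror2, 0.33 (-0.32 to 0.97). With single libraries left out, the values without the block ran from 0.13 to 0.30 for Fzd2, 0.12 to 0.29 for Fzd5, -0.56 to -0.13 for Wnt11, 0.00 to 0.11 for Lrp5 and 0.14 to 0.47 for Ror2.

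Among the modulators and the genes inside the cell, Sfrp4 was 0.14 (-0.29 to 0.57), Dkk2 -0.37 (-1.08 to 0.35) and Rspo1 0.27 (-0.68 to 1.22) on the log2 scale. These intervals, and those given next, are from the fit without the block. Leaving out single libraries gave 0.03 to 0.30 for Sfrp4, -0.66 to -0.18 for Dkk2 and 0.01 to 0.71 for Rspo1. Rspo2, an R-spondin, was 0.56 (-0.50 to 1.61), and its size depended on letter A. Within letters A to D the Rspo2 difference was 0.99, 0.23, 0.11 and 0.10 (log2), higher with the TSP-4 plasmid in 4 of 4. In the fit with the letter as a block and both letter A libraries left out it was 0.16. Leaving out the TSP-4 plasmid library A alone, while the empty plasmid library A stayed, gave -0.10. Nkd1, an inhibitor of the Dishevelled proteins, was 0.30 (-0.29 to 0.89), or 0.15 to 0.59 with single libraries left out. Tcf7, which encodes TCF1, was 0.50 (-0.03 to 1.03) and was the 1 gene of the 36 whose groups did not overlap in FPKM, at 0.276, 0.324, 0.292 and 0.341 in the TSP-4 group and 0.233, 0.200, 0.249 and 0.178 in the empty plasmid group (background 0.747% of genes with the TSP-4 group higher and 0.774% with the empty plasmid group higher). It rested on 13 to 16 counts per library against 9 to 13, and its adjusted p was 1.00 by edgeR. Axin2, a common readout of β-catenin signalling, was 0.36 (-0.82 to 1.55). In fits without the block it was -0.03 without the TSP-4 plasmid library B and 0.91 without the empty plasmid library B. Each of these fits kept the other letter B library. Within letters A to D the Axin2 difference was 0.75, 0.16, 0.20 and 0.27 (log2), higher with the TSP-4 plasmid in 4 of 4. With the letter as a block it was 0.38 (edgeR adjusted p = 0.689).

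The second comparison asked whether libraries of different letters differ beyond the 2 libraries of 1 letter, with the plasmid as a term in the fit. Here 21 of the 36 genes (58.3%) were called by edgeR's quasi-likelihood test, against 28.1% of all genes tested. The calls fell in every role: 4 of 9 ligands, 5 of 8 Frizzleds, 2 of 4 co-receptors, 4 of 5 antagonists, 2 of 3 R-spondins and 4 of 7 genes inside the cell. The median range between letter means was 0.60 on the log2 scale, against 0.30 for all genes. A range of at least 2-fold was seen for 9 of the 36 (25.0%, all genes 9.92%), and of at least 4-fold for 0 (all genes 1.78%). Counting error alone widens the range of genes with few counts, and the background was not matched for count level. The 9 include Wnt5b, with a log2 range of 1.05 on 7 to 21 counts per library, which was not called (edgeR adjusted p = 0.219). Among the 21 called genes the highest letter was A for 10, B for 6, C for 2 and D for 3, and over all 4134 called genes these shares were 25.1%, 27.9%, 26.9% and 20.1%. The lowest letter was A for 4 of the 21, B for 4, C for 2 and D for 11, against 36.6%, 20.7%, 17.1% and 25.7% of all called genes. The same letter was highest in both groups for 24 of the 36 (background 48.2%). With both libraries of letter A left out, an alternative chosen after seeing the data, 11 of the 36 were called (background 23.8%), and DESeq2 called 13 (background 18.4%). Fzd1, Dkk3, Wnt9a and Sfrp2 were called in all 17 alternatives that were run.

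**Figure D3:**
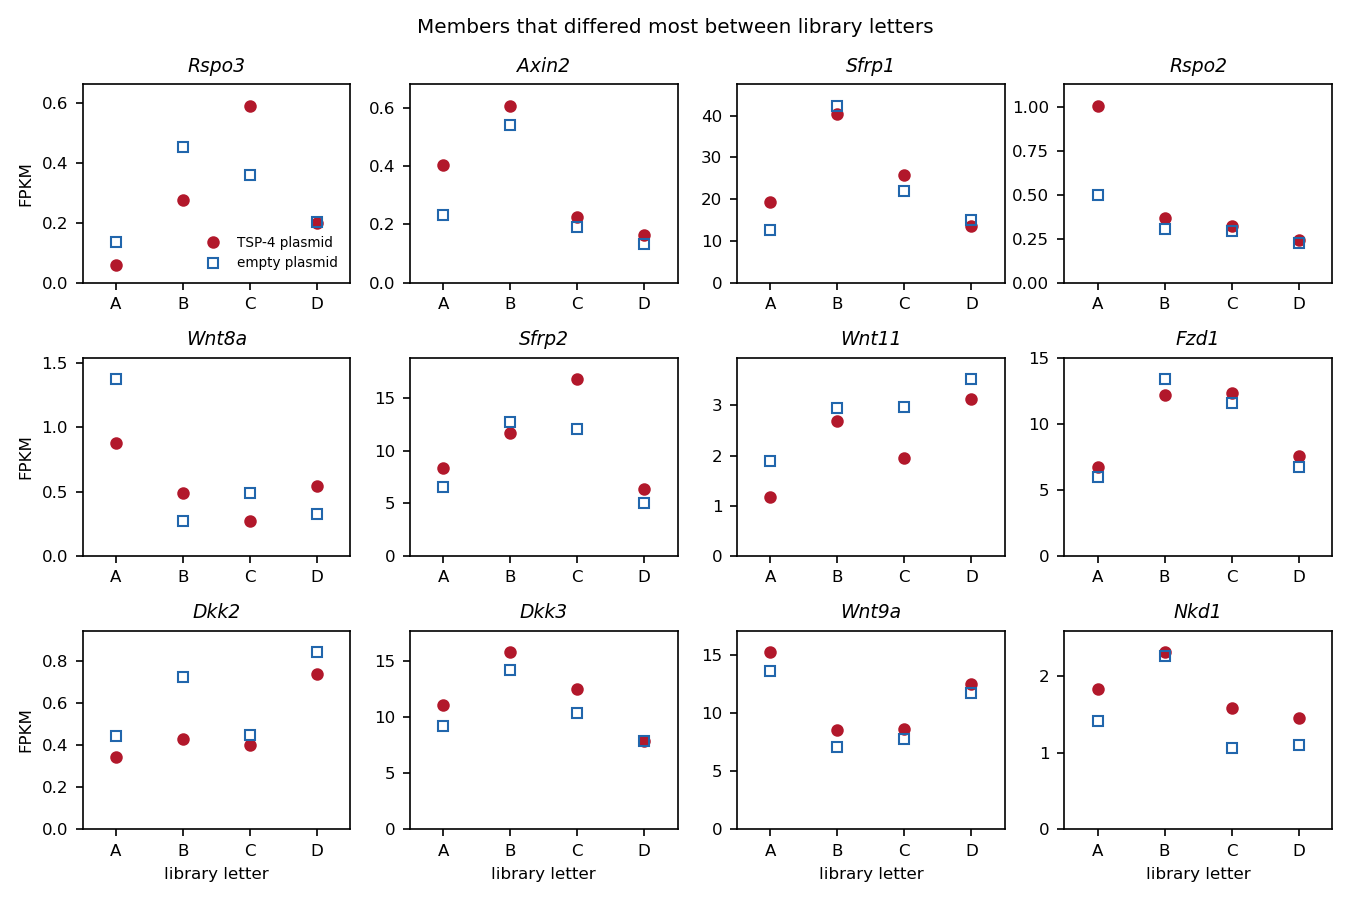
FPKM (linear axes starting at 0) by library letter for the 12 Wnt family genes called between letters with the widest range of letter means, with a circle for the TSP-4 plasmid library and a square for the empty plasmid library of each letter. The 2 libraries of a letter lie close together for Fzd1, Dkk3 and Wnt9a, while Wnt8a, Rspo3 and Rspo2 differ more within a letter.

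Among the ligands with the widest ranges, Wnt9a and Wnt8a were highest in A and lowest in B, and Wnt11 was lowest in A. Wnt9a was 1.83-fold higher in A than in B (edgeR adjusted p = 2.48e-06). The epicardial and mesothelial markers were also high in A and D: their sum was 315, 167, 195 and 279 FPKM in A to D in the TSP-4 group and 323, 151, 187 and 270 in the empty plasmid group. Of these 7 markers, 5 were called between letters by edgeR (28.1% of all genes). The part of the epicardial and mesothelial markers in the Wnt9a levels was not tested. Wnt11 was 2.21-fold higher in D than in A (edgeR adjusted p = 0.000517; 0.0627 with both letter A libraries left out). Wnt8a, on 8 to 51 counts per library, had 0.88, 0.487, 0.270 and 0.544 FPKM against 1.37, 0.267, 0.490 and 0.327. It was 2.72-fold higher in A than in B (edgeR adjusted p = 0.0198, and 0.952 with both letter A libraries left out). That call was lost without the empty plasmid library A (edgeR adjusted p = 0.362) and in DESeq2 (0.152).

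Fzd1 was the Frizzled with the widest range (chromosome 5, 4753839 to 4758035, minus strand), with 6.74, 12.3, 12.4 and 7.57 FPKM in A to D in the TSP-4 group and 5.98, 13.4, 11.6 and 6.73 in the empty plasmid group. Letters B and C were high and A and D low in each group, the reverse of Wnt9a. The letter means differed 2.04-fold (edgeR adjusted p = 1.17e-06). Fzd2, Fzd5, Fzd6 and Fzd8, also called, each had their highest mean in letter A, as did Lrp5. Of the 17 alternatives, the call was lost in 7 for Fzd8 (adjusted p up to 0.128), 7 for Lrp5 (up to 0.414), 5 for Fzd5 (up to 0.217), 1 for Fzd6 (0.347 with both letter A libraries left out) and 1 for Fzd2 (0.110 with no plasmid term). Single libraries were enough for Fzd8 (TSP-4 plasmid A, C or D, empty plasmid C or D), Lrp5 (TSP-4 plasmid C, empty plasmid A, C or D) and Fzd5 (TSP-4 plasmid A or D). The sum of the 5 myofibroblast markers, all at a mean of at least 1 FPKM, was likewise highest in A, with 1068, 591, 615 and 570 FPKM in letters A to D against 1040, 533, 638 and 524. Of these 5 markers, 3 were called between letters by edgeR (28.1% of all genes). Whether these markers have a part in the Frizzled levels was not tested.

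Of the antagonists, Sfrp1 was 2.91-fold higher in B than in D (edgeR adjusted p = 0.0244, and 0.139 with both letter B libraries left out). The Sfrp1 call was lost without the TSP-4 plasmid library C (0.0543), without the empty plasmid library B (0.0758) and with no filter on low counts (0.0976, all edgeR adjusted p). Sfrp2 was 2.50-fold higher in C than in D (edgeR adjusted p = 2.88e-05), and Dkk3 1.91-fold higher in B than in D (1.20e-05 by edgeR). Dkk2, an antagonist that binds Lrp5 and Lrp6, was 1.96-fold higher in D than in A on 25 to 60 counts per library (edgeR adjusted p = 0.0340), and 10 of 17 alternatives lost the call, with adjusted p from 0.0574 to 0.384. Leaving out any of 6 single libraries was enough for that: A, C or D of either group.

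Rspo3 was 3.96-fold higher in C than in A, the widest range of the 36 (edgeR adjusted p = 0.0135). It had 4, 15, 31 and 11 counts in A to D in the TSP-4 group and 9, 24, 22 and 12 in the empty plasmid group. The call was lost without the TSP-4 plasmid library A (edgeR adjusted p = 0.0598) or C (0.0621), and in DESeq2 (0.0798). The macrophage markers were lowest in A and highest in C as well, with sums of 213, 527, 1236 and 534 FPKM against 232, 708, 992 and 442. Of the 12 macrophage markers, 12 were called between letters by edgeR (28.1% of all genes). Sfrp2 shared only the highest letter C and was lowest in D. The part of the macrophage markers in the Rspo3 and Sfrp2 levels was not tested. With both letter A libraries left out, neither Rspo3 nor Rspo2 was called between letters (edgeR adjusted p = 0.113 and 0.453). Rspo2 was 2.87-fold higher in A than in D (edgeR adjusted p = 0.00262), a call that was lost without the TSP-4 plasmid library A (0.124).

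**Figure D4:**
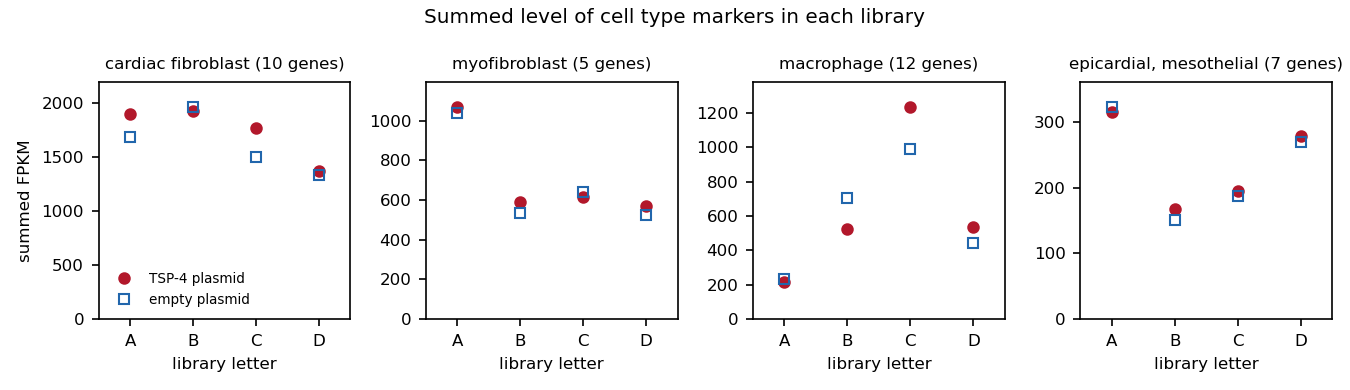
Summed FPKM (linear axes starting at 0) of 4 lists of cell type markers by library letter, with a circle for the TSP-4 plasmid library and a square for the empty plasmid library. Macrophage markers run from 213 FPKM in A to 1236 in C, myofibroblast markers are highest in A, and epicardial and mesothelial markers are highest in A and D.

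The feedback genes Axin2 and Nkd1 were both highest in B. Axin2 had 49, 59, 21 and 16 counts in A to D in the TSP-4 group and 27, 51, 21 and 14 in the empty plasmid group, or 0.402, 0.607, 0.225 and 0.162 FPKM against 0.231, 0.540, 0.192 and 0.132. It was 3.59-fold higher in B than in D (edgeR adjusted p = 0.00123; 0.0956 with both letter B libraries left out). Nkd1 had 1.83, 2.31, 1.58 and 1.45 FPKM against 1.41, 2.26, 1.06 and 1.09, a 1.81-fold range with the same highest and lowest letter (edgeR adjusted p = 0.00285; 0.0573 without the empty plasmid library B). The Nkd1 call was also lost with both letter B libraries left out (edgeR adjusted p = 0.222). Ctnnb1 itself was not called between letters (1.08-fold, edgeR adjusted p = 0.299).

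Other genes of the pathway were read from 4 lists, which hold none of the 54 genes. Between plasmids 0 genes of any list were called by edgeR, DESeq2 or limma voom, or by edgeR with the letter as a block. DESeq2 with the letter as a block called 1, the membrane-bound Wnt inhibitor Apcdd1 (DESeq2 adjusted p = 0.0468, blocked edgeR adjusted p = 0.419), which is named here after its values were seen. Apcdd1 had 28.4 ± 7.96 FPKM in the TSP-4 group and 22.4 ± 7.53 in the empty plasmid group (SD, n = 4 each), and it was higher with the TSP-4 plasmid in 4 of 4 letters while the groups overlapped. At an unadjusted p under 0.05 edgeR gave 0 without the block, and with it 5 of 16 receptors and secreted proteins, 2 of 30 genes of the cytoplasm and nucleus, 1 of 16 of planar polarity and calcium and 4 of 14 known targets, where all genes gave 8.12%. The shares called between letters given below stand against 28.1% of all genes, and the counts above 0 between plasmids against 49.9%. Of 16 tested receptors and secreted proteins, 9 were called between letters (56.2%), and 12 had a log2 fold change above 0 between plasmids, with a median of 0.08. Igfbp4, a secreted protein that can inhibit Wnt signalling, stood at 82.8 to 179 FPKM and was 2.04-fold higher in C than in D (edgeR adjusted p = 7.67e-08). Znrf3, the ubiquitin ligase that removes Frizzleds and is held off by R-spondins, was lower with the TSP-4 plasmid in 4 of 4 letters, at 1.34 ± 0.0611 against 1.54 ± 0.145 FPKM (SD, n = 4 each). Its log2 fold change between plasmids was -0.21 (95% interval -0.42 to 0.00). Of 30 tested genes of the cytoplasm and nucleus, such as Dvl1, 11 were called between letters (36.7%), and the median between plasmids was 0.02, with 18 above 0. Of 16 planar polarity and calcium genes, 7 were called between letters (43.8%) with a median between plasmids of 0.02. Prickle1, a cytoplasmic planar polarity protein, was highest in B and lowest in D (2.36-fold, edgeR adjusted p = 0.00678). Of 14 known targets, 9 were called between letters (64.3%), and 4 were above 0 between plasmids with a median of -0.07. Among these targets Ccnd1, which encodes cyclin D1, was highest in D and lowest in A (1.31-fold, edgeR adjusted p = 0.000366), and Wisp2, the most abundant, was highest in B and lowest in D (1.41-fold, edgeR adjusted p = 7.53e-05).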

How the data were processed

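Poly(A) RNA of 8 libraries was analysed, 4 per plasmid group. Counts are the whole-number reads per gene that the authors deposited for 54532 genes. FPKM are from a second deposited table of the authors; dividing each count by gene length and library total gives them up to 1 constant per library. HTSeq 0.6.1, Cufflinks 2.1.1, TopHat2 2.0 and CASAVA, and the builds GRCm38.p6 and mm10, are listed in the submitters' processing notes with no role for each. Not given in the sources used here are the annotation release, the strand setting and how multiply mapping reads were handled. The kit was NEBNext Ultra, per the labels' protocols.

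Counts were tested with edgeR 4.0.16 (robust quasi-likelihood, TMM factors, filterByExpr at its minimum count of 10) in R 4.3.3, with Benjamini-Hochberg adjustment at 0.05 over all 14723 genes kept. The plasmid was the only term in the first comparison, and letter with plasmid entered the second. The test was checked on simulated counts. Alternatives were DESeq2 1.42.0, limma voom 3.58.1, other size factors, no filter, left-out libraries and the replicate block. Same-letter libraries deviated together from their group means (Pearson r across genes 0.508 to 0.651, different letters -0.570 to 0.323), above the limit of 0.1, so the letters were taken to pair them; this comes from the data, not the labels. No libraries were duplicates: the mean chi-square per gene between them was 4.88 to 39.9.

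Members, lists and tests were chosen with earlier results of these data known. Named were, by role, up to 3 genes with the highest mean FPKM and the 2 with the smallest p between plasmids, up to 12 genes called between letters with the widest range, and in each further list some of the 2 most abundant and the 2 of smallest p, picked after their values were seen, as were Apcdd1, Frzb and Wnt7a. Names were matched by symbol for 144 of 145 list entries and through a RefSeq synonym for 1. Upstream sequences are from RefSeq (GRCm38.p6).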

Additional observations from a re-analysis of the deposited data

Results flagged for a closer look

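Of 62 sets of 4 libraries examined, 1 gene in 1 group each, 7 had 1 library apart from the other 3 by Dixon's ratio (its gap to the nearest library divided by the group's range). Chance gives about 5% of sets. In 5 of the 7 the library was a letter A library above the rest, and it carried the TSP-4 plasmid in 4 of these. Fzd6 stood apart in both groups: 21.6 FPKM in the TSP-4 plasmid library A against 10.8 to 12.4 (ratio 0.849), and 16.2 in the empty plasmid library A against 10.6 to 11.0 (ratio 0.934). Fzd8 had 19.8 FPKM in the TSP-4 plasmid library A against 12.5 to 13.4 (ratio 0.865), Fzd4 had 3.48 against 2.56 to 2.70 (ratio 0.852), and Rspo2 had 1.01 against 0.241 to 0.366 (ratio 0.837). Wnt5a had 4.91 FPKM in the TSP-4 plasmid library D against 3.62 to 3.81 (ratio 0.851). Ctnnb1 had 85.7 FPKM in the empty plasmid library B against 91.3 to 92.2 (ratio 0.857).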

How the results depend on the processing

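The count of 0 genes called between plasmids was the same in all 18 alternatives, which include the fit with the replicate block (0 of 36 called). The DESeq2 fit with that block gave no adjusted p for some genes, Wnt11, Nkd1 and Rspo2 among them, and could not call these. The count called between letters, 21 by edgeR, was 13 in DESeq2, where 3 genes had no adjusted p, and 11 with both letter A libraries left out, an alternative added after seeing the data. The other 15 alternatives stayed within 1.5 times of it. Leaving out single libraries gave 14 to 21, where the background was 18.6% to 28.6% of all genes tested. The count of genes at 1 FPKM or more, 21, was 32 at 1 CPM or more, a measure that does not divide by gene length. Over all 36 tested genes, the sign of the plasmid fold change turned for 20 when single libraries were left out of the fit without the block. Repeats of the 12 named ones kept their sign in 215 cases and changed it in 1: Rspo2 was -0.10 without the TSP-4 plasmid library A (range -0.10 to 0.82 over single libraries left out), and 0.16 with both letter A libraries left out in the blocked fit. Repeats of the 12 named letter tests kept the call in 177 cases and lost it in 27. The causes of these changes were not tested. Depth limits the scarce genes: Rspo1, Rspo3, Tcf7 and Wnt5b had at most 31 counts in any library, and 18 of the 54 genes did not pass the filter on low counts. Without that filter edgeR tested 53 genes. Of these 0 were called between plasmids (background 0.0033% of 30348 genes) and 23 between letters (background 16.7%).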
